A study of Homo sapiens with 12 samples.

Results

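The histone genes are the genes that encode the linker histone H1 and the core histones H2A, H2B, H3 and H4. They were described here as 82 members among the 29345 genes above 0 TPM in at least 1 library. Members were the rows with a histone symbol and a TPM above 0 in at least 1 column. Of the 124 rows whose symbol fitted, 29 pseudogenes by name, 4 by annotation, 1 antisense RNA and 8 rows at 0 in all 12 columns were left out. The members were 65 canonical genes of the histone clusters, 11 replication-independent genes and 6 others, most of them known from the germ line or testis. All values come from MDA-MB-468, an established line of triple-negative breast cancer cells. There were 4 groups of 3 libraries: the combination of SAHA and sonidegib, SAHA alone (10 µM, 12 h), sonidegib alone (10 µM, 72 h, labelled as a pretreatment) and control. In the combination sonidegib was given first, at the same doses and times. SAHA (vorinostat) blocks the histone deacetylases that use zinc, and sonidegib blocks Smoothened, which passes on the Hedgehog signal. The labels do not say what the control cells received, whether the sonidegib cells were collected directly after the 72 h, or whether libraries came from separate cultures, so each p-value reflects only how much these libraries varied, which may be technical.

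Canonical histone genes sit in clusters, are transcribed mainly while DNA is copied, and give mRNAs that end in a stem-loop in place of a poly(A) tail. Replication-independent genes are single genes with polyadenylated mRNAs, and their proteins replace the canonical ones through the whole cell cycle. Some canonical genes also give polyadenylated transcripts, a form known from cells that leave the cycle or differentiate. Deacetylase inhibitors block the enzymes that take acetyl groups off histone lysines, so the histone proteins stay acetylated.

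Values were TPM, the share of a transcript among all transcripts after correction for length, and the depth of each library is unknown. Changes are log2 differences of TPM + 1 with their standard error (SE) from limma, and a gene was called at a Benjamini-Hochberg adjusted p under 0.05 over 13937 tested genes. In RNA from whole cultures, fewer cells that make a transcript and less of it in each cell cannot be told apart. The line's epithelial markers EPCAM, KRT8, KRT18, KRT19, CDH1 and the amplified EGFR were all expressed, EGFR at 516.07 to 677.85 TPM over the 12 libraries. PGR was listed at 0, ESR1 stayed at or under 1.76 TPM and ERBB2 reached 26.3 TPM. Of 11 markers of other cell types, 3 passed the filter (CD68, COL1A1 and ACTA2) and all 3 were called higher in each treated group against control. The 11 summed to 20.1 to 21.6 TPM with the combination, 21.6 to 26.2 with SAHA, 19.5 to 21.6 with sonidegib and 8.1 to 9.59 in control, while the leukocyte marker PTPRC was at 0 to 0.01 TPM. Their part in the results was not tested.

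The libraries with and without sonidegib differed in RNAs that lack a poly(A) tail, as most canonical histone mRNAs do. Annotated 5S ribosomal RNA summed to 1487.53 to 12640.67 TPM in the 6 libraries with sonidegib and was listed at 0 in the 6 without. A fixed list of other RNAs without a poly(A) tail, such as RMRP and RN7SK, summed to 677.58 to 943.34 TPM with the combination, 1620.31 to 2210.27 with SAHA, 356.05 to 2390.56 with sonidegib and 1668.29 to 3595.88 in control. Sonidegib library 3 held the highest sums of both kinds among the libraries with sonidegib. How libraries were selected for poly(A) or depleted of ribosomal RNA is not given in the sources used here. Comparing SAHA with control, or the combination with sonidegib, stays on one side of this split. The other comparisons cross it, so drug and library handling cannot be told apart there.

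Most histone mRNA signal came from the replication-independent genes. They summed to 2963.8 ± 101.5 TPM with the combination, 2659.2 ± 84.5 with SAHA, 2306.8 ± 17.2 with sonidegib and 2436.5 ± 137.1 in control (mean ± SD, n = 3 libraries each). The 65 canonical genes together summed to 160.8 ± 6.16, 179.2 ± 5.78 and 155.9 ± 19.8 TPM with the combination, SAHA and sonidegib, against 233.6 ± 9.62 TPM in control. In every treated library the canonical sum lay below every control library, with sonidegib library 3 the highest of its group at 178.63 TPM. The canonical share of both classes was 5.14 ± 0.0231% with the combination, 6.32 ± 0.367% with SAHA, 6.32 ± 0.704% with sonidegib and 8.76 ± 0.4% in control.

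The lower canonical sums of the treated groups rested on a single gene. Without HIST1H2BK, an H2B gene, the canonical sum was 137.3 ± 6.4 TPM with the combination, 135.0 ± 6.79 with SAHA and 129.4 ± 18.7 with sonidegib, against 114.7 ± 7.01 in control (SD, n = 3). With that gene left out, the sums of the combination and SAHA libraries lay above all control libraries, while the lowest sonidegib library, at 116.91 TPM, lay within the control range of 106.72 to 119.85 TPM. HIST1H2BK made up 14.5 ± 1.21%, 24.7 ± 3.04% and 17.1 ± 2.98% of canonical TPM with the combination, SAHA and sonidegib, against 50.9 ± 1.04% in control.

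**Figure D1:**
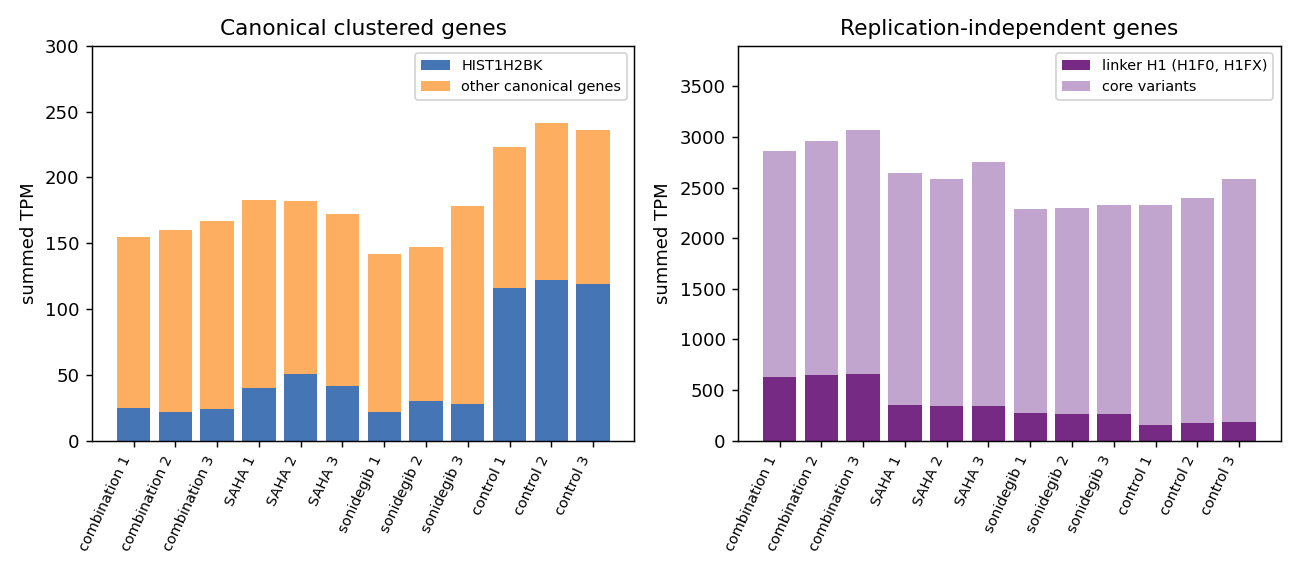
Summed TPM (linear axes from 0) of the 65 canonical clustered genes on the left and the 11 replication-independent genes on the right, 1 stacked bar per library. HIST1H2BK takes 116.18 to 121.75 TPM of the control bars and at most 50.87 TPM of any treated bar, and the linker H1 part of the replication-independent bars is highest in the combination libraries, at 630.61 to 655.54 TPM.

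Just 32 members passed the filter, a 12-library average of 1 TPM or more: 22 of 65 canonical and 10 of 11 replication-independent genes. The median of the gene means was 0.585 TPM for canonical and 219.2 TPM for replication-independent genes. The lowest canonical gene that was tested had a mean of 1.17 TPM and the highest that was not had 0.922 TPM. No canonical gene below the filter passed 2.89 TPM in any library, and together the 43 of them summed to 13.5 to 31.3 TPM per library. H3F3C, a primate copy of the H3.3 genes, was the replication-independent gene below the filter, with a mean of 0.32 TPM. The germ line or testis genes H1FNT, H2AFB1, H2AFB2, H2AFB3 and HIST3H3 stayed at or under 1.3 TPM in every library. H2BFS, an H2B gene on chromosome 21 that RefSeq names H2BC12L, lies outside the clusters and reached at most 0.64 TPM, in a control library. Of the canonical genes known for polyadenylated transcripts, HIST2H2BE and HIST4H4 were also below the filter.

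The linker histones bind DNA where it enters and leaves the nucleosome. H1F0 encodes H1.0, the linker histone known for accumulating in cells that have stopped dividing (ENSG00000189060, GRCh38 chromosome 22, 37805093 to 37807436). It had 439.6, 446 and 457 TPM with the combination, 200.3, 196 and 217 with SAHA, 157, 154 and 163 with sonidegib, and 61.8, 63.8 and 75.5 in control. The 4 groups did not overlap, and the order ran from the combination through SAHA and sonidegib to control. Its log2 change was 2.73 ± 0.070 for the combination against control (adjusted p = 1.73e-10), the largest rise of any member there. The rise was 1.60 ± 0.070 for SAHA against control (adjusted p = 8.78e-09) and 1.5 ± 0.070 for the combination against sonidegib (adjusted p = 1.37e-07). Sonidegib against control gave 1.23 ± 0.070 (adjusted p = 1.05e-07). The interaction, which is the SAHA response with sonidegib minus the response without it, was -0.10 ± 0.099 (adjusted p = 0.478), and a p that misses the threshold does not show that the responses were equal.

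H1FX encodes H1x, the other somatic linker histone outside the clusters. It measured 191, 203 and 199 TPM with the combination, 150.3, 146 and 127 with SAHA, 119, 107 and 102 with sonidegib, and 95.5, 106 and 109.98 in control. The sonidegib and control libraries overlapped, and no other pair of groups did. H1FX rose by 0.93 ± 0.079 with the combination against control (adjusted p = 1.23e-06), by 0.44 ± 0.079 with SAHA (adjusted p = 0.00056) and by 0.85 ± 0.079 in the combination against sonidegib (adjusted p = 1.18e-05), and the sonidegib change of 0.08 ± 0.079 was not called (adjusted p = 0.428), though after quantile normalization it was (0.30, adjusted p = 0.00624). Together H1F0 and H1FX summed to 645.2 ± 13.0 TPM with the combination, 345.3 ± 4.66 with SAHA, 267.4 ± 8.15 with sonidegib and 170.8 ± 14.1 in control.

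Among the canonical linker genes, HIST1H1C, which encodes H1.2 and can be polyadenylated, took most of the signal. It had 12.7, 12.8 and 11.8 TPM with the combination, 21.5, 19.6 and 19.8 with SAHA, 7.29, 9.24 and 7.38 with sonidegib, and 13.9, 13.1 and 9.53 in control. SAHA libraries were the highest and sonidegib libraries the lowest, and the combination overlapped control. HIST1H1C rose with SAHA against control (log2 change 0.71 ± 0.127, adjusted p = 0.000505) and in the combination against sonidegib (0.59 ± 0.127, adjusted p = 0.00365), and it fell by 0.54 on the log2 scale with sonidegib against control (SE 0.127, adjusted p = 0.00357). The combination against control gave 0.04 ± 0.127 (adjusted p = 0.788). HIST1H1E, for H1.4, had 2.2 ± 0.598 TPM with the combination, 1.53 ± 0.68 with SAHA, 1.64 ± 0.832 with sonidegib and 1.08 ± 0.302 in control and was not called. Its combination change against control (0.61, adjusted p = 0.0692) was called without combination 1 (0.76, adjusted p = 0.0495), after rescaling over protein-coding genes (0.70, adjusted p = 0.0355) and with only those groups fitted (adjusted p = 0.0271). Of all linker H1 TPM, H1F0 made up 67.7 ± 0.666% with the combination, 55.6 ± 3.3% with SAHA, 56.7 ± 1.94% with sonidegib and 36.2 ± 1.88% in control.

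The promoters of the canonical HIST1H1C and the replication-independent H1FX are shown because both rose with SAHA against control and in the combination against sonidegib, and their windows hold different matches to the letters that mark histone promoters. Each runs 5′ to 3′ on the gene's strand, from 250 bases before the start to 50 after it, with motif matches in capitals (RefSeq, GRCh38.p14, HIST1H1C at chr6:26056421-26056720 on the minus strand and H1FX at chr3:129316237-129316536 on the minus strand).
HIST1H1C: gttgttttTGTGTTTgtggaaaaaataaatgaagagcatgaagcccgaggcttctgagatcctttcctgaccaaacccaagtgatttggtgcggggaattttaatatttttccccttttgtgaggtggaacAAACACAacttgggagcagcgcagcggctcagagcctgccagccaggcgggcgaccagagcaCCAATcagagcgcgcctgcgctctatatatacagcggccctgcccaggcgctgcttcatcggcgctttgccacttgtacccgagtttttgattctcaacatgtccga
H1FX: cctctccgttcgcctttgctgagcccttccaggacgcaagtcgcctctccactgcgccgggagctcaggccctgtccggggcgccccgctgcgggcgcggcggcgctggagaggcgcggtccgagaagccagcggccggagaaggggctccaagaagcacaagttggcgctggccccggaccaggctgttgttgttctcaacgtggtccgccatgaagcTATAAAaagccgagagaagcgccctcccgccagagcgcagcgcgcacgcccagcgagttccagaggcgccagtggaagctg
The search covered both strands and took TATAAA as the TATA box, CCAAT as the CCAAT box and AAACACA as the H1 box of linker histone promoters. The octamer bound by OCT1 was searched as ATTTGCAT. HIST1H1C held a CCAAT 57 bases before the start and an H1 box 119 and, reversed, 242 bases before it. H1FX held a TATAAA 31 bases before the start and none of the other letters in this window. The H1 box was found in 5 of 5 canonical H1 promoters, in 0 of 9 replication-independent promoters and in 5.76% of all 27305 promoters in the table.

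The H2A variants moved in both directions. H2AFY2 encodes macroH2A2, a variant with a large additional domain that is known from silent chromatin. It had 0.95, 0.84 and 1.29 TPM with the combination, 1.91, 1.75 and 1.69 with SAHA, 5.92, 4.8 and 5.29 with sonidegib, and 10.8, 12.1 and 12.4 in control. No groups overlapped, and the order was that of H1F0 turned upside down. H2AFY2 fell by 2.66 on the log2 scale with the combination against control (SE 0.116, adjusted p = 6.22e-09), by 2.19 with SAHA (adjusted p = 3.47e-08) and by 1.01 with sonidegib alone (adjusted p = 2.2e-05), and by 1.65 in the combination against sonidegib (adjusted p = 1.78e-06). H2AFY, for macroH2A1, had 192, 193 and 210.1 TPM with the combination, 264, 256 and 278 with SAHA, 192, 178 and 186 with sonidegib, and 285, 296 and 311 in control. All treated libraries lay below all control libraries, closest with SAHA. H2AFY fell by 0.58 on the log2 scale with the combination (SE 0.054, adjusted p = 2.46e-06) and by 0.68 with sonidegib (adjusted p = 1.19e-06). Its SAHA change against control of -0.16 ± 0.054 (adjusted p = 0.0246) was lost without control 2, control 3, SAHA 1 or SAHA 2, where it was -0.16 to -0.13 with adjusted p 0.0528 to 0.0931, after rescaling over protein-coding genes (-0.10, adjusted p = 0.0796) and with no intensity trend (adjusted p = 0.0591).

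H2AFX encodes H2AX, the variant phosphorylated at DNA breaks. It had 17.5, 17.6 and 19.8 TPM with the combination, 31.5, 35.7 and 34.7 with SAHA, 27.2, 23.6 and 25.3 with sonidegib, and 53.6, 58.3 and 55.1 in control, with no overlap between any groups. The fall was 1.56 on the log2 scale with the combination against control (SE 0.075, adjusted p = 1.3e-08), 0.70 with SAHA (adjusted p = 9.66e-06), 1.10 with sonidegib (adjusted p = 3.77e-07) and 0.45 in the combination against sonidegib (adjusted p = 0.000692). H2AFX is the replication-independent gene whose transcript model holds the histone stem-loop, and it is known to give both stem-loop and polyadenylated mRNA.

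H2A.Z, the variant found around promoters, comes from H2AFZ and H2AFV. H2AFZ had 365, 364 and 389.8 TPM with the combination, 397, 413 and 442 with SAHA, 465, 458 and 467 with sonidegib, and 584, 599 and 635 in control. The groups did not overlap. It fell by 0.70 on the log2 scale with the combination against control (SE 0.050, adjusted p = 3.03e-07), by 0.54 with SAHA (adjusted p = 3.17e-06), by 0.39 with sonidegib (adjusted p = 5.93e-05) and by 0.31 in the combination against sonidegib (adjusted p = 0.000548). H2AFV went the other way with SAHA, at 205.2, 223 and 235 TPM with the combination, 254, 261 and 275 with SAHA, 184, 172 and 184 with sonidegib, and 189, 203 and 227 in control. The SAHA libraries lay above all others, and the combination and control libraries overlapped. H2AFV rose by 0.35 ± 0.071 with SAHA against control (adjusted p = 0.00113) and by 0.29 ± 0.071 in the combination against sonidegib (adjusted p = 0.00664). Its combination change against control of 0.10 (adjusted p = 0.233) was called after median-of-ratios scaling (0.15, adjusted p = 0.0298), quantile normalization (0.37, adjusted p = 0.000143) and rescaling over protein-coding genes (0.17, adjusted p = 0.0271), and without control 3 (0.17, adjusted p = 0.0483). The sonidegib change of -0.19 ± 0.071 (adjusted p = 0.0364) was lost without control 2, control 3 or any one sonidegib library, where it was -0.21 to -0.12 with adjusted p 0.0546 to 0.146. H2AFZ was 62.8 ± 1.02% of the pair's TPM with the combination, 61.3 ± 0.351% with SAHA, 72.1 ± 0.551% with sonidegib and 74.6 ± 0.902% in control.

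H2AFJ encodes H2A.J, a variant known to accumulate in senescent cells. It had 354, 362 and 379 TPM with the combination, 329.6, 354 and 312 with SAHA, 356, 343 and 344 with sonidegib, and 238, 241 and 223 in control. The 3 treated groups lay close together and all above control. The rise was 0.64 ± 0.054 with the combination against control (adjusted p = 1.04e-06), 0.50 ± 0.054 for SAHA against control (adjusted p = 9.16e-06) and 0.57 ± 0.054 for sonidegib against control (adjusted p = 4.46e-06). In the combination against sonidegib the change was 0.07 ± 0.054 (adjusted p = 0.336), and the interaction of -0.43 ± 0.076 was called (adjusted p = 0.00133), but not after median-of-ratios scaling (-0.31, adjusted p = 0.0589).

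H3.3, the H3 variant placed into transcribed chromatin, is encoded by H3F3A and H3F3B. H3F3B had 618, 655 and 648 TPM with the combination, 618, 578 and 636 with SAHA, 336, 382 and 395 with sonidegib, and 388, 406 and 447 in control. Libraries with SAHA, alone or combined, lay above all libraries without it. H3F3B rose by 0.56 ± 0.070 with SAHA against control (adjusted p = 3e-05) and by 0.79 ± 0.070 in the combination against sonidegib (adjusted p = 8.15e-06), and the sonidegib change against control was -0.16 ± 0.070 (adjusted p = 0.0753), called without control 1 or sonidegib 3 (both -0.20, adjusted p = 0.0454 and 0.0431). H3F3A had 482, 494 and 529 TPM with the combination, 397, 342 and 427 with SAHA, 451, 478 and 455 with sonidegib, and 418, 411 and 494 in control. Its groups overlapped in each comparison with control, and none of these was called on the deposited scale (0.19 with the combination, adjusted p = 0.076, and -0.18 ± 0.087 with SAHA, adjusted p = 0.0921). These calls depended on the scaling: after median-of-ratios scaling H3F3A was called at 0.23 with the combination (adjusted p = 0.0067) and at -0.27 with SAHA (adjusted p = 0.00304). The combination change was also called after quantile normalization (0.41, adjusted p = 0.00282), rescaling over protein-coding genes (0.26, adjusted p = 0.00882) and without control 3 (0.27, adjusted p = 0.0156), and the SAHA change without SAHA 3 (-0.25, adjusted p = 0.0325). With sonidegib it was called after quantile normalization (0.27, adjusted p = 0.0289). A processed pseudogene copy, H3F3AP4, was listed at 150.8 ± 11.5 TPM with the combination, 163.8 ± 14.8 with SAHA, 136.3 ± 19.8 with sonidegib and 155.4 ± 8.25 in control, and shares sequence with H3F3A, so the split of reads between them is uncertain. H3F3B made up 56.1 ± 1.01% of the pair with the combination, 61.2 ± 1.52% with SAHA, 44.5 ± 1.85% with sonidegib and 48.4 ± 1.14% in control.

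**Figure D2:**
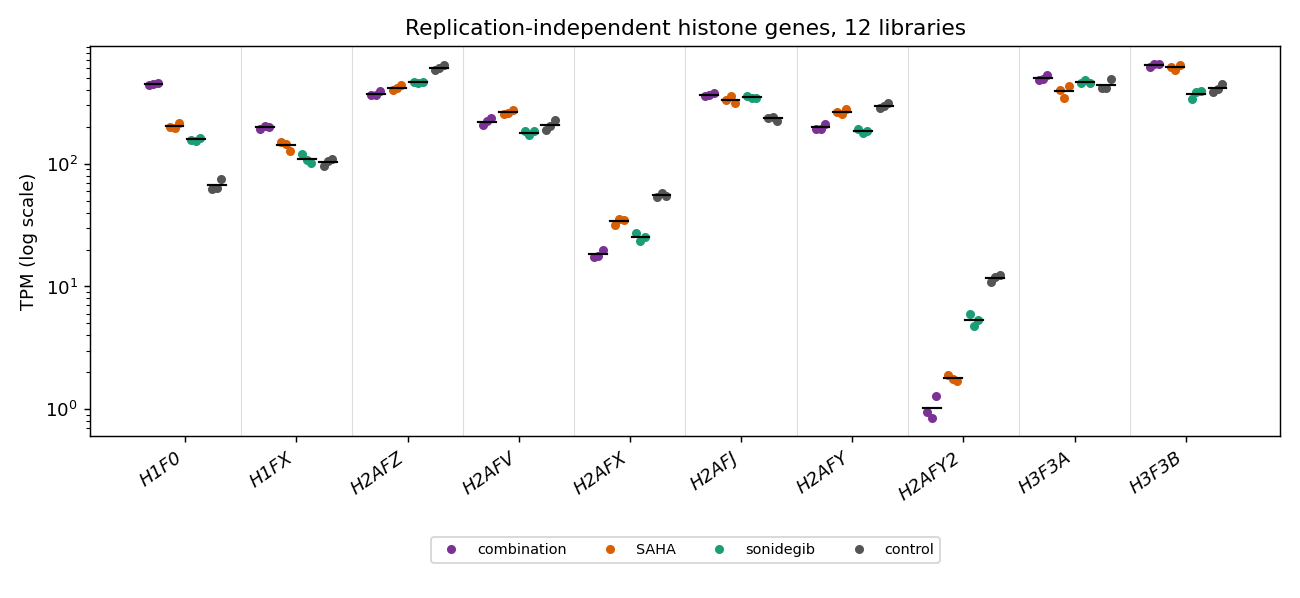
TPM (log axis) of the 10 tested replication-independent genes, 1 point per library and a black line at each group mean, with the combination, SAHA, sonidegib and control in that order for each gene. H1F0 is highest in the combination (439.61 to 456.63 TPM) and lowest in control (61.84 to 75.45 TPM), whereas H2AFY2 runs the opposite way (0.84 to 1.29 TPM against 10.8 to 12.41 TPM).

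HIST1H2BK was the most abundant canonical gene in control and the canonical gene that fell furthest against control. It encodes a canonical H2B, is known for polyadenylated transcripts, and lies on GRCh38 chromosome 6 from 27146418 to 27146798 (minus strand, ENSG00000197903). It had 24.6, 21.5 and 24.2 TPM with the combination, 40.3, 50.9 and 41.5 with SAHA, 21.6, 30.2 and 27.7 with sonidegib, and 116, 122 and 119 in control. Every treated library was below every control library, and the combination overlapped sonidegib. HIST1H2BK fell by 2.30 on the log2 scale with the combination against control (SE 0.118, adjusted p = 1.99e-08), by 1.41 with SAHA (adjusted p = 1.24e-06) and by 2.14 with sonidegib (adjusted p = 8.48e-08). In the combination against sonidegib it changed by -0.16 ± 0.118 (adjusted p = 0.311), a value that was called without sonidegib library 1 (-0.30, adjusted p = 0.0454). The interaction was 1.25 ± 0.167 (adjusted p = 0.000213), the difference between a SAHA response of -0.16 with sonidegib and -1.41 without it.

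HIST1H2BD, another polyadenylated H2B gene, did not follow HIST1H2BK. It had 18.2, 15.7 and 16.4 TPM with the combination, 23.4, 21.4 and 22.8 with SAHA, 10.5, 11.3 and 13.3 with sonidegib, and 14.2, 10.8 and 14.1 in control. SAHA libraries were the highest, and sonidegib and control overlapped. HIST1H2BD rose by 0.75 ± 0.113 with SAHA against control (adjusted p = 0.00014) and by 0.49 ± 0.113 in the combination against sonidegib (adjusted p = 0.00543). Its rise of 0.35 ± 0.113 with the combination against control (adjusted p = 0.0189) was lost without control 2 (0.23, adjusted p = 0.0796) or combination 1 (0.29, adjusted p = 0.0704). HIST1H2BC, a further H2B gene of this kind, had 2.55 ± 1.23 TPM with the combination, 0.997 ± 0.523 with SAHA, 2.16 ± 0.763 with sonidegib and 1.83 ± 0.617 in control (SD, n = 3), and no comparison with control was called.

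The promoters of these H2B genes are printed because the genes share a family and a polyadenylated form and moved in opposite directions with SAHA against control (motif matches in capitals, 5′ to 3′, RefSeq, GRCh38.p14, HIST1H2BK at chr6:27146809-27147108 on the minus strand and HIST1H2BD at chr6:26157871-26158170 on the plus strand).
HIST1H2BK: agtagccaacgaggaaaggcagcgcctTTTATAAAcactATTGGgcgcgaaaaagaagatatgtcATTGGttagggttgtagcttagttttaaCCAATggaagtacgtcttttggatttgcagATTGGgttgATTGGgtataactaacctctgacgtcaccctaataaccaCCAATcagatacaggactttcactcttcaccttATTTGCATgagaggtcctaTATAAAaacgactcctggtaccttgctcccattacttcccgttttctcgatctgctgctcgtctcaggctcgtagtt
HIST1H2BD: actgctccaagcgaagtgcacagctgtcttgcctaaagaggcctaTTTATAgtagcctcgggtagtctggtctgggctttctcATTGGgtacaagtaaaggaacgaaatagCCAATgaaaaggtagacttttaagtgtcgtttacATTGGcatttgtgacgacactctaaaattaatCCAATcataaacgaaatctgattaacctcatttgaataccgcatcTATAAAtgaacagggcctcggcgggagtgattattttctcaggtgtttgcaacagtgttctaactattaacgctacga
Both held a TATAAA close to the start, at 27 bases before it in HIST1H2BK and 28 in HIST1H2BD. CCAAT stood 6 times in HIST1H2BK and 4 times in HIST1H2BD, counting both strands. HIST1H2BK also held the octamer 46 bases before the start, and the HIST1H2BD window had no match to these letters. Of the 69 members with a promoter in the RefSeq table, CCAAT was found in 46 of 55 canonical promoters and 6 of 9 replication-independent ones, against 35.7% of all 27305 promoters. HIST1H2AD and HIST1H3D are listed with the same window, which is counted for each of them. The octamer stood in 13 of 17 canonical H2B and 10 of 13 canonical H2A promoters, against 1.8% of all promoters. A match here describes letters and is not a bound site.

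Of the canonical H2A genes, HIST3H2A, a single-copy gene on chromosome 1 (228456979 to 228457873), was called higher against control in all 3 treated groups. It had 15.6, 19 and 16.1 TPM with the combination, 8.45, 7.91 and 6.89 with SAHA, 14.5, 14.5 and 13.4 with sonidegib, and 4.27, 4.58 and 5.66 in control. None of the groups overlapped. HIST3H2A rose by 1.62 ± 0.111 with the combination against control (adjusted p = 1.94e-07), by 0.59 ± 0.111 with SAHA (adjusted p = 0.000748) and by 1.38 ± 0.111 with sonidegib (adjusted p = 1.3e-06). The combination against sonidegib gave 0.24 ± 0.111, which was not called. HIST1H2AC, an H2A gene known for polyadenylated transcripts, had 9.37, 9.51 and 10.1 TPM with the combination, 10.6, 9.56 and 13.4 with SAHA, 6.17, 6.12 and 5.61 with sonidegib, and 10.7, 9.65 and 12.8 in control. Only the sonidegib libraries stood apart, below all others. HIST1H2AC fell by 0.78 on the log2 scale with sonidegib against control (SE 0.122, adjusted p = 0.000226) and rose by 0.61 ± 0.122 in the combination against sonidegib (adjusted p = 0.00218), and its SAHA change was 0.01 ± 0.122 (adjusted p = 0.94). HIST2H2AA3 and HIST2H2AA4, near-identical copies that share reads, summed to 6.03 ± 0.669 TPM with the combination, 12.2 ± 0.248 with SAHA, 4.77 ± 2.15 with sonidegib and 10.6 ± 2.27 in control, and their single rows are uncertain. HIST2H2AA4 alone had a larger SAHA change than HIST3H2A (1.40 ± 0.703, adjusted p = 0.11), not called except without control 3 (2.24, adjusted p = 0.00736).

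The H4 genes all encode the same protein and did not move as one. HIST1H4I had 15.6, 18.2 and 19.2 TPM with the combination, 13.7, 13.6 and 15.5 with SAHA, 33, 26.6 and 27.4 with sonidegib, and 18.4, 18.4 and 28.9 in control. SAHA libraries lay below all others, and the combination and sonidegib both overlapped control, the first at its low end and the other at its high end. It fell by 0.56 on the log2 scale with SAHA against control (SE 0.157, adjusted p = 0.00952), by 0.35 when control 3 was left out, and by 0.68 in the combination against sonidegib (adjusted p = 0.00522). The rise of 0.41 ± 0.157 with sonidegib (adjusted p = 0.0429) was lost without control 1, control 2 or any one sonidegib library (0.31 to 0.47, adjusted p 0.0511 to 0.155) and was 0.62 without control 3. It was lost as well with no filter, with only those groups fitted and with no intensity trend (adjusted p = 0.0949, 0.108 and 0.0538).

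HIST2H4A had 7.41, 9.13 and 7.47 TPM with the combination, 14.2, 12.5 and 8.86 with SAHA, 5.9, 3.35 and 7.34 with sonidegib, and 3.5, 4.12 and 3.34 in control. SAHA and combination libraries lay above control, and sonidegib overlapped control. The gene rose by 1.45 ± 0.223 with SAHA (adjusted p = 0.000167) and by 0.95 ± 0.223 with the combination (adjusted p = 0.0029) against control. Its sonidegib change of 0.44 (adjusted p = 0.115) was called without sonidegib 2 (0.71, adjusted p = 0.00807). HIST2H4B is a near-identical copy, and the pair summed to 8.31 ± 0.768 TPM with the combination, 12.6 ± 1.66 with SAHA, 5.95 ± 1.93 with sonidegib and 4.02 ± 0.531 in control.

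HIST1H4C had 7.1, 4.09 and 5.2 TPM with the combination, 0.78, 0.74 and 0.26 with SAHA, 2.5, 2.44 and 6.53 with sonidegib, and 2.33, 3.65 and 1.45 in control. Its SAHA libraries lay below all others, and sonidegib overlapped control and the combination. The fall with SAHA against control (1.09 on the log2 scale, SE 0.327, adjusted p = 0.0132) was lost without control 2 (-0.86, adjusted p = 0.0586) or SAHA 3 (-0.93, adjusted p = 0.0512). The rise with the combination against control (0.92 ± 0.327, adjusted p = 0.0287) was lost without control 1, control 3, combination 1 or combination 3 (0.69 to 0.93, adjusted p 0.057 to 0.112) and with no filter (adjusted p = 0.072). HIST1H4J had 8.52 ± 1.02 TPM with the combination, 3.01 ± 0.662 with SAHA, 6.98 ± 1.8 with sonidegib and 4.62 ± 2.41 in control (SD, n = 3). Its rise with the combination against control of 0.84 ± 0.266 (adjusted p = 0.0166) was lost without control 1, control 3 or combination 3 (0.59 to 0.77, adjusted p 0.0508 to 0.0723). Its sonidegib change against control of 0.56 (adjusted p = 0.0942) was called without control 2 (0.89, adjusted p = 0.0054) or sonidegib 1 (0.76, adjusted p = 0.0445).

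Canonical H3 mRNA was scarce, at 8.69 ± 0.815 TPM over 14 genes with the combination, 6.03 ± 1.13 with SAHA, 11 ± 6.74 with sonidegib and 4.82 ± 1.09 in control. The sonidegib spread came from library 3, at 18.8 TPM, against 6.9 and 7.34 TPM in the other sonidegib libraries. HIST1H3B was listed at 0 in all 3 SAHA libraries and reached 6.55 TPM in sonidegib library 3, and no change of it was called with all libraries as deposited. Without combination 1, which lists it at 0, the combination change was called against control (1.76, adjusted p = 0.0145, where it had been 1.06) and against SAHA (2.09, adjusted p = 0.00818, where it had been 1.40). The change against SAHA was also called after rescaling over protein-coding genes (1.54, adjusted p = 0.0486). HIST2H3A and HIST2H3C are listed with identical values in all libraries.

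**Figure D3:**
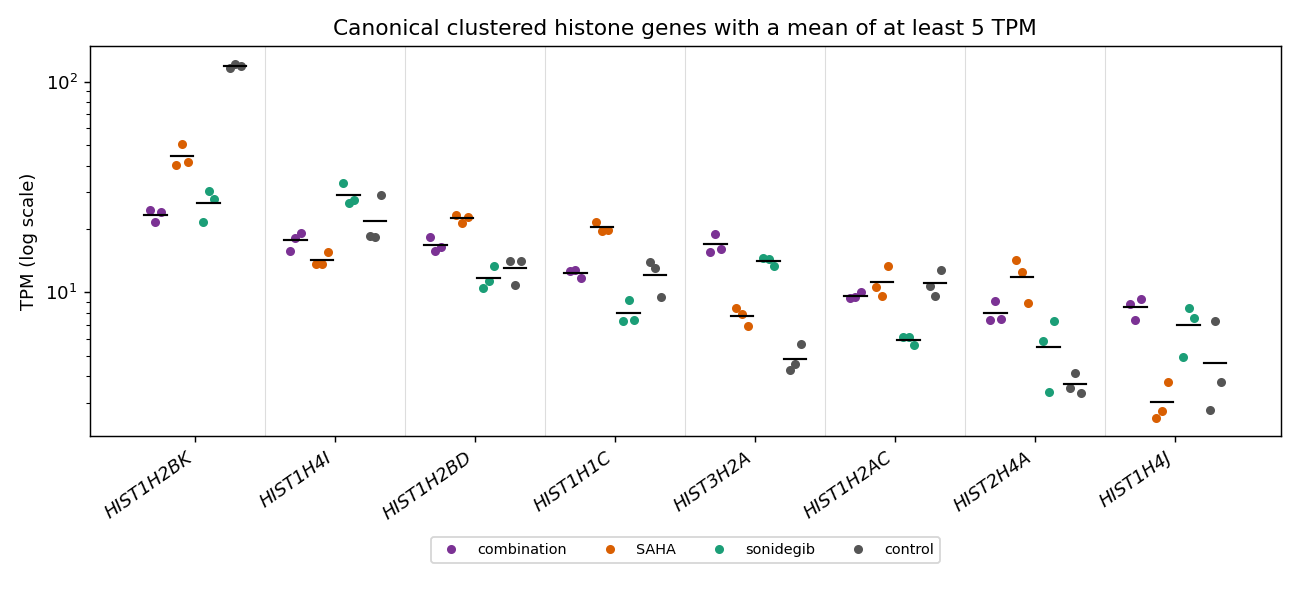
TPM (log axis) of the 8 canonical clustered genes that averaged 5 TPM or more, 1 point per library and a black line at each group mean. HIST1H2BK separates control (116.18 to 121.75 TPM) from all treated libraries, and HIST3H2A does so in the other direction (4.27 to 5.66 TPM in control), whereas HIST1H4J overlaps control with SAHA and with sonidegib.

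The stem-loop at the end of canonical mRNAs is shown for H2AFX and for the canonical genes averaging 5 TPM or more whose GENCODE 29 transcript models contain it, because the models decide which reads count. The 16 letters in capitals fit a left arm GGNNCT, a loop of 4 letters (TNTN) and a right arm AGNNCC, searched without gaps on the sense strand of transcripts, with 5 flanking bases on each side in lower case (GRCh38, 5′ to 3′).
H2AFX: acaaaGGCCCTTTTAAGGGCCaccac
HIST1H2AC: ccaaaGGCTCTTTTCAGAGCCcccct
HIST3H2A: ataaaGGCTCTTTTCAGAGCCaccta
HIST1H2BD: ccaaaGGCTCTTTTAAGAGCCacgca
HIST1H4I: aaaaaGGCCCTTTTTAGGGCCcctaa
HIST2H4A: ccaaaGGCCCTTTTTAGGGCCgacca
HIST1H4J: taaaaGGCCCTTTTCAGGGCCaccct
The sites lie at chr11:119094893-119094918 (H2AFX), chr6:26124664-26124689 (HIST1H2AC), chr1:228457364-228457389 (HIST3H2A), chr6:26158582-26158607 (HIST1H2BD), chr6:27139649-27139674 (HIST1H4I), chr1:149833027-149833052 (HIST2H4A) and chr6:27824454-27824479 (HIST1H4J), with H2AFX and HIST3H2A on the minus strand. HIST1H4I and HIST2H4A have the same 16 letters, as do HIST1H2AC and HIST3H2A, and the members of neither pair had the same calls. The letters were found in 31 of 65 canonical genes and in 110 of 19684 protein-coding genes (0.559%). In 25 canonical genes a model ran more than 50 bases past the stem-loop. Another 31 canonical genes, HIST1H2BK and HIST1H1C among them, have models with no untranslated sequence annotated. Reads from an untranslated end or a poly(A) tail extension would fall outside such a model. HIST1H3J is counted among the 31, though its models cover 775 bases, against 411 for HIST1H3A. Which annotation the authors used is not given in the sources used here.

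Setting SAHA against control asks what SAHA did alone. There, 5 canonical genes were called higher and 3 lower of 22 tested, and 5 replication-independent genes higher and 4 lower of 10. The background is high: 58.7% of all tested genes were called, 31.8% higher and 26.9% lower. With 8 of 22 canonical and 9 of 10 replication-independent genes called, the first share lay below this background and the other above it. This is a description over few genes. The classes also differed in level: 8 canonical genes averaged 5 TPM or more, and genes at a few TPM had larger standard errors. These shares therefore do not compare how strongly the classes responded. Median log2 changes were -0.04 for canonical and 0.1 for replication-independent genes, against 0.05 for all genes. The canonical calls were HIST2H4A, HIST1H2BD, HIST1H1C, HIST3H2A and HIST1H2BN higher, and HIST1H2BK, HIST1H4C and HIST1H4I lower. HIST1H2BN, an H2B gene, was called weakly (0.46 ± 0.175, adjusted p = 0.041) and not without control 1, control 3, SAHA 1 or SAHA 2 (0.37 to 0.42, adjusted p 0.108 to 0.138), nor after median-of-ratios scaling (0.39, adjusted p = 0.0855) or quantile normalization (0.32, adjusted p = 0.172). With no filter, 6 of 65 canonical genes were called higher and 6 lower, against 17.1% and 12.8% of all 29345 genes.

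The combination against sonidegib asks the same of SAHA after sonidegib. Of all genes, 38.5% were called, 17.5% higher and 21% lower. Called canonical genes were HIST1H2AC, HIST1H1C and HIST1H2BD, all higher, and HIST1H4I, lower, out of 22. Without sonidegib 3, 5 canonical genes were called higher (HIST1H4C at 0.87 and HIST2H4A at 0.71 in addition), and without sonidegib 1, 2 were called lower. Among the 10 replication-independent genes, H1F0, H1FX, H3F3B and H2AFV were called higher and H2AFY2, H2AFX and H2AFZ lower. Median changes were 0.13 for canonical and 0.11 for replication-independent genes, against -0.02 for all genes. These libraries are distinct from those of SAHA against control. All 7 replication-independent genes called here were called the same way there, which was 77.8% of the 9 called there, and 3 canonical genes were (HIST1H1C, HIST1H2BD and HIST1H4I), 75.0% of those called here and 37.5% of those called there. Over all genes, shared calls in the same direction were 71.7% of those called here and 47.1% of those called there, and 355 genes were called in opposite directions, none of them a member. The difference between these responses, the interaction, was called in 31.4% of all genes, 11.8% higher and 19.7% lower, and in 3 canonical genes higher and 1 lower and 4 replication-independent genes higher and 1 lower. The interaction crosses the split in 5S ribosomal RNA.

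**Figure D4:**
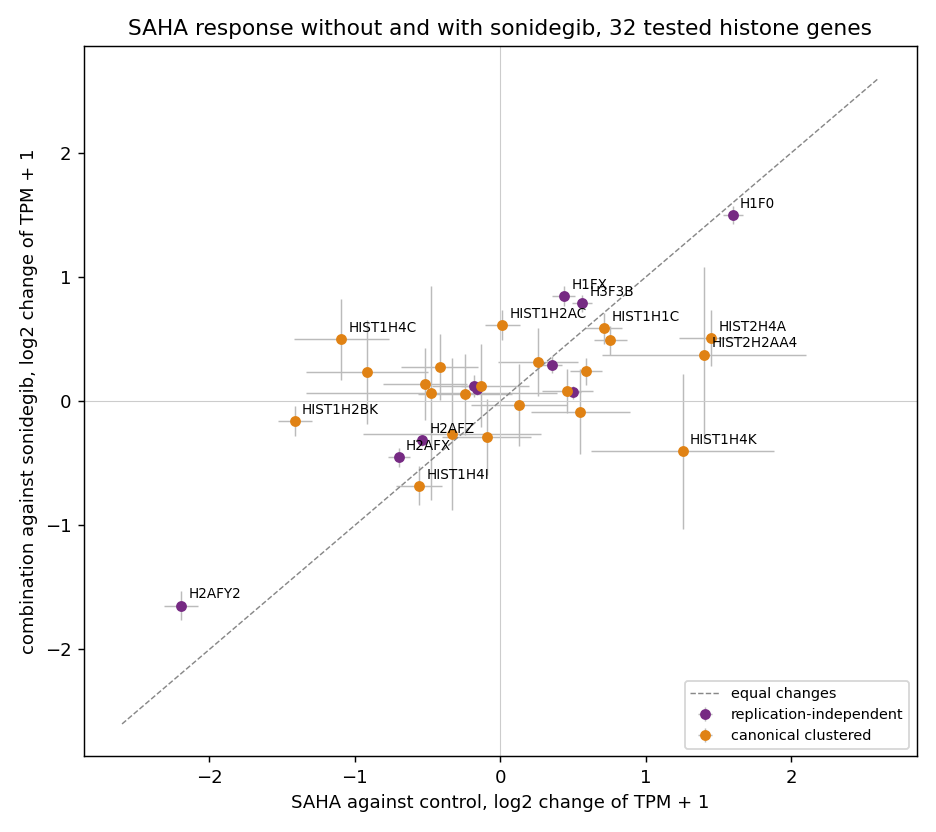
Log2 change of TPM + 1 for the 32 tested members, SAHA against control on the horizontal axis and the combination against sonidegib on the vertical axis, with bars of ± 1 SE and a dashed line of equal changes. H1F0 (1.60 and 1.5) and H2AFY2 (-2.19 and -1.65) lie far from 0 on both axes, whereas HIST1H2BK (-1.41 and -0.16) lies far from 0 on the horizontal axis and near 0 on the vertical one.

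In sonidegib against control 55.3% of all genes were called, 26.1% higher and 29.2% lower. Canonical genes had 2 higher (HIST3H2A and HIST1H4I) and 3 lower (HIST1H2BK, HIST1H2AC and HIST1H1C) of 22, with a median change of 0.15 against -0.02 for all genes. Replication-independent genes had 2 higher (H1F0 and H2AFJ) and 5 lower (H2AFX, H2AFY2, H2AFY, H2AFZ and H2AFV) of 10, with a median of -0.18. The canonical rises numbered 1 without control 1 or without sonidegib 3. In the combination against SAHA 50.9% of all genes were called, 18% higher and 33% lower, 35.3% of the calls being higher. After median-of-ratios scaling 49.6% of the calls were higher, and the median of all genes moved by 0.12, to 0 where it had been -0.12.

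The combination against SAHA had 4 canonical genes higher (HIST1H4C, HIST1H4J, HIST3H2A and HIST1H2BC) and 5 lower (HIST1H4K, HIST1H2BK, HIST1H2BN, HIST1H1C and HIST1H2BD) of 22. After median-of-ratios scaling 5 were higher and 4 lower, with HIST1H4I gained (0.42, adjusted p = 0.0202, against 0.29 and 0.147 as deposited) and HIST1H4K lost. On the median-scaled values, HIST1H4C rose by 2.07 ± 0.332 (adjusted p = 0.000327), HIST1H4J by 1.36 ± 0.267 (adjusted p = 0.00129) and HIST3H2A by 1.15 ± 0.111 (adjusted p = 8.61e-06). HIST1H2BK fell by 0.75 on that scale (SE 0.131, adjusted p = 0.000575) and HIST1H1C by 0.54 (SE 0.152, adjusted p = 0.0113). HIST1H2BC (0.80 as deposited, adjusted p = 0.0369) was lost without SAHA 2, SAHA 3, combination 1 or combination 3 (0.55 to 0.80, adjusted p 0.0799 to 0.143). HIST1H4K, at 0 in 2 combination libraries, had a call at -1.63 (adjusted p = 0.0482) that was lost on the median-scaled values (-1.54, adjusted p = 0.0631) and without any one SAHA library, combination 1 or combination 3 (-1.75 to -1.32, adjusted p 0.074 to 0.15).

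For the replication-independent genes of the combination against SAHA, 4 were higher and 5 lower of 10 as deposited, and 5 higher and 3 lower after median-of-ratios scaling. On the median-scaled values H1F0 rose by 1.26 ± 0.054 (adjusted p = 4.07e-08), H1FX by 0.62 ± 0.096 (adjusted p = 0.000241) and H3F3A by 0.51 ± 0.064 (adjusted p = 5.56e-05). H2AFX fell by 0.73 (SE 0.081, adjusted p = 2.35e-05), H2AFY2 by 0.38 (SE 0.107, adjusted p = 0.0105) and H2AFY by 0.29 (SE 0.047, adjusted p = 0.000393). H3F3B was called after this scaling only (0.20, adjusted p = 0.0128). H2AFZ and H2AFV lost their calls (-0.03 and -0.12, adjusted p = 0.698 and 0.0844), and as deposited H2AFZ was also lost without SAHA 3, combination 1 or combination 2 (-0.14 to -0.12, adjusted p 0.0613 to 0.0819). H2AFJ, barely called as deposited (0.14, adjusted p = 0.0487), was lost without SAHA 1, SAHA 3 or any one combination library (0.10 to 0.16, adjusted p 0.0507 to 0.181) and was at 0.27 after scaling (adjusted p = 0.0162). This comparison and sonidegib against control share no libraries, and 7 replication-independent and 3 canonical genes (HIST1H2BK, HIST1H1C and HIST3H2A) were called the same way in both. That was 7 of 7 and 3 of 5 of those called with sonidegib alone, and 77.8% and 33.3% of those called here. Over all genes it was 55.1% of those called with sonidegib alone and 59.8% of those called here. Both comparisons cross the split in 5S ribosomal RNA in the same direction. Drug and library handling therefore cannot be told apart in the calls they share. The 7 are calls as deposited and include H2AFZ and H2AFV, which lost theirs here after scaling.

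The combination against control gave calls in 63.7% of all genes, 29.7% higher and 34% lower. Of the 22 canonical genes 5 were higher (HIST3H2A, HIST2H4A, HIST1H4C, HIST1H4J and HIST1H2BD) and HIST1H2BK was lower, with a median change of 0.17 against -0.02 for all genes. The 5 rises became 3 without control 1, control 3 or combination 3. Among replication-independent genes 4 rose (H1F0, H1FX, H2AFJ and H3F3B) and 4 fell (H2AFY2, H2AFX, H2AFZ and H2AFY), with a median of 0.15.

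Genes that make and handle canonical histone mRNA and histones were read from lists, given here by their counts. Of 20 tested genes for histone mRNA transcription and end processing, 3 were higher and 8 lower with the combination, 4 and 10 with SAHA, and 1 and 9 with sonidegib, each against control. Over all genes those shares were 29.7% and 34% with the combination, 31.8% and 26.9% with SAHA, and 26.1% and 29.2% with sonidegib. The list's median changes were -0.17, -0.27 and -0.24. The list had 6 higher and 2 lower in the combination against sonidegib, 4 and 5 in the combination against SAHA, and 7 and 1 in the interaction. Over all genes those shares were 17.5% and 21%, 18% and 33%, and 11.8% and 19.7%. After median-of-ratios scaling the list had 8 and 4 in the combination against SAHA, where 3588 and 3645 of all 13937 genes were called. In the interaction it then had 12 and 0, where 2581 and 2251 of all genes were called. SLBP, which binds the stem-loop, had 50.7 ± 4.35 TPM with the combination, 62.2 ± 5.13 with SAHA, 44.2 ± 4.35 with sonidegib and 80.9 ± 11.4 in control (SD, n = 3), and fell in each comparison with control (by 0.66 for the combination, 0.37 for SAHA and 0.85 for sonidegib on the log2 scale, with adjusted p = 0.000257, 0.0128 and 5.09e-05 in that order). NPAT, the coactivator of histone gene clusters, was called only with sonidegib against control (-0.65 ± 0.187, adjusted p = 0.0113). CASP8AP2, a partner in the same nuclear body, fell by 0.57 with SAHA (SE 0.203, adjusted p = 0.0294). The list's largest fall with the combination and with sonidegib was CSTF2, a cleavage factor subunit (-1.29 ± 0.081 and -1.62 ± 0.081), and with SAHA it was E2F1, an S phase transcription factor (-1.07 ± 0.068, adjusted p = 1.33e-07).

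Histone chaperones, which carry histones to DNA, were lower against control in 14 of 22 with the combination, 16 with SAHA and 14 with sonidegib, with 3, 1 and 3 higher. Their median changes were -0.55, -0.71 and -0.41, against -0.02, 0.05 and -0.02 for all genes, of which 34%, 26.9% and 29.2% were called lower. The combination had 2 higher and 8 lower against sonidegib, where 17.5% and 21% of all genes were called. Against SAHA it had 6 higher and 5 lower, where 18% and 33% of all genes were called. After median-of-ratios scaling it had 10 and 4 against SAHA, where 3588 and 3645 of all 13937 genes were called. In the interaction 12 were higher and 0 lower, against 11.8% and 19.7% of all genes. After scaling 16 were higher and 0 lower, where 2581 of all 13937 genes were higher and 2251 lower. ASF1B, a chaperone of newly made H3 and H4, had 97.2 ± 4.46 TPM with the combination, 47.7 ± 3.98 with SAHA, 76.7 ± 2.79 with sonidegib and 67.6 ± 5.05 in control. It rose by 0.52 ± 0.072 with the combination (adjusted p = 6.54e-05) and fell by 0.49 with SAHA (SE 0.072, adjusted p = 0.000114). CHAF1A, a subunit of the replication-coupled chaperone CAF-1, fell by 0.79 with SAHA (SE 0.099, adjusted p = 3.33e-05) and was not called with the combination or sonidegib. HIRA, which deposits H3.3, fell by 0.83 with the combination (SE 0.078, adjusted p = 2.88e-06) and by 0.73 with sonidegib (adjusted p = 1.2e-05), and SAHA gave -0.10 ± 0.078 (adjusted p = 0.271). The 25 genes of S phase and DNA replication were higher in 2 and lower in 17 with the combination, 0 and 23 with SAHA, and 3 and 17 with sonidegib against control, read against the same shares of all genes, with medians of -0.73, -0.87 and -0.64. They had 4 higher and 10 lower in the combination against sonidegib, and 11 higher and 6 lower in the combination against SAHA. After median-of-ratios scaling they had 14 and 4 against SAHA. All of these are read against the all-gene calls given above for the chaperones in the same comparisons. The interaction was called higher in 23 of the 25 and lower in 0, against 11.8% and 19.7% of all genes. Its median was 0.82, against -0.07 for all genes. The S phase list shares SLBP with the histone mRNA list and MCM2 with the chaperone list, so these genes are counted in both.

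CENPA, the centromeric H3 that lies outside the symbol rule, had 32.7 ± 4.38 TPM with the combination, 12.6 ± 0.581 with SAHA, 44.2 ± 4.89 with sonidegib and 22.2 ± 3.67 in control (SD, n = 3). It rose by 0.54 ± 0.127 with the combination (adjusted p = 0.00298) and by 0.97 ± 0.127 with sonidegib (adjusted p = 6.12e-05) and fell by 0.76 with SAHA (SE 0.127, adjusted p = 0.000333). HJURP, the chaperone of CENPA, moved the same way in the 3 comparisons (0.52 ± 0.125, 0.73 ± 0.125 and -0.98 ± 0.125, adjusted p = 0.00333, 0.000444 and 3.82e-05).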

How the data were processed

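RNA sequencing of total RNA from 12 MDA-MB-468 libraries, 3 per group by the labels, was deposited by the authors as a table of TPM, rounded to 2 decimals, in which each column sums to between 999999 and 1000001. Bowtie2 2.4.1 and GRCh38 are named per the submitters' processing notes. The quantifier, the annotation, strandedness and the RNA selection are not given in the sources used here, and TPM keep no depth. Overlapping and antisense genes may therefore share signal. Deposited TPM were turned into log2(TPM + 1) here and fitted with limma 3.58.1 (R 4.3.3): 4 group means, 8 residual degrees of freedom, an intensity trend, a filter of 1 TPM on the 12-library mean, two-sided tests and Benjamini-Hochberg adjustment over all 13937 tested genes within each comparison. The fit was tested on simulated data. Member sums had no test. Gene types, positions and transcript models came from GENCODE release 29, which matched all 82 members, and promoters from RefSeq. Members, classes, lists and the naming rule were chosen with earlier results of these data known. Named per comparison were the 8 largest called rises and falls, all tested replication-independent genes, canonical genes known for polyadenylated transcripts and, from other lists, the largest changes and 8 fixed genes, of which some are left undescribed. Alternatives were median-of-ratios scaling, quantile normalization, rescaling over protein-coding genes, a pseudocount of 0.1, no filter, a fit on the compared groups alone, no intensity trend, a replicate block and leaving out each library.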

Additional observations from a re-analysis of the deposited data

Results flagged for a closer look

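The interaction test, which compares the SAHA response with and without sonidegib, called 9 of the 32 tested members (limma, adjusted p under 0.05). That share is near the 31.4% of all tested genes that were called, 11.8% higher and 19.7% lower. The interaction is combination minus sonidegib minus SAHA plus control, so it sets libraries of the 2 sides of the 5S split against each other, and drug and library handling cannot be told apart. The median interaction of all tested genes was -0.07 as deposited and 0.03 after median-of-ratios scaling. Under that scaling 53.4% of all called genes were higher, against 37.5% as deposited.

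Canonical HIST1H2BK had an interaction of 1.25 on the log2 scale (adjusted p = 0.000213), with responses of -0.16 in the combination against sonidegib and -1.41 in SAHA against control. HIST1H2AC had 0.6 (adjusted p = 0.0214), and HIST1H4C had 1.59 (adjusted p = 0.0225), lost without control 2, SAHA 3, sonidegib 1, sonidegib 2 or combination 1 (1.36 to 1.43, adjusted p 0.051 to 0.0541) or with no filter (adjusted p = 0.0608). HIST2H4A had -0.94 (adjusted p = 0.0415), lost in 9 of the 12 fits that leave out a library, all but those without SAHA 3, sonidegib 2 or combination 2 (-1.01 to -0.74, adjusted p 0.0523 to 0.0956), and also after median-of-ratios scaling (-0.83, adjusted p = 0.0683), quantile normalization (-0.78, adjusted p = 0.0976) and with no filter (adjusted p = 0.0986).

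Among replication-independent genes, H1FX had 0.41 (adjusted p = 0.0164) and H2AFJ had -0.43 (adjusted p = 0.00133), and H2AFJ was lost after median-of-ratios scaling (-0.31, adjusted p = 0.0589). H2AFY2 had 0.55 (adjusted p = 0.026), lost without control 2, control 3, SAHA 3, sonidegib 2 or sonidegib 3 (0.49 to 0.54, adjusted p 0.0517 to 0.0646), with a pseudocount of 0.1 (0.37, adjusted p = 0.26) and with no filter (adjusted p = 0.0545); it stood at 0.84 to 1.29 TPM in the combination, where the added 1 weighs on the value. H2AFY had 0.26 (adjusted p = 0.0243), lost without control 3, SAHA 1, SAHA 2 or sonidegib 2 (0.23 to 0.25, adjusted p 0.0526 to 0.0586) or with no intensity trend (adjusted p = 0.0584). H2AFZ had 0.22 (adjusted p = 0.0331), lost without control 2, control 3, SAHA 1, SAHA 2, combination 3 or any one sonidegib library (0.19 to 0.23, adjusted p 0.0528 to 0.0816), with no filter (adjusted p = 0.0597) or with no intensity trend (adjusted p = 0.0841). After median-of-ratios scaling, H2AFX (0.36, adjusted p = 0.0304), H3F3A (0.42, adjusted p = 0.00424) and H3F3B (0.34, adjusted p = 0.0084) gained an interaction call. HIST1H2BJ, an H2B gene with no call, reached one without combination 1 (1.64, adjusted p = 0.0236).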

How the results depend on the processing

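Among tested members, 1426 values under other settings counted as unchanged, 33 gained a call and 43 lost one with the sign kept. Another 2 called values changed sign and were no longer called. Values not called in either fit counted as unchanged even where the sign differed. With 1 library left out the numbers were 1241, 23, 77 and 0. The sign changes of called values came with quantile normalization, and the cause was not tested. They were H2AFV in sonidegib against control at 0.057 and H2AFZ in the combination against SAHA at 0.022. With no filter, canonical genes called lower were 6 in SAHA against control, 5 in sonidegib against control and 2 in the combination against control. Of all 29345 genes, 12.8%, 13.8% and 16.9% were called lower there, in that order. Canonical genes called higher in sonidegib against control were 1 with no filter, with the compared groups alone and with no intensity trend, and 1 to 2 with a library left out. Over all genes the higher calls there were 3683 of 29345 with no filter. They were 3493 of 13937 with the compared groups alone and 3638 of 13937 with no intensity trend. Replication-independent genes called higher in sonidegib against control were 4 after quantile normalization, where 3883 of all 13937 genes were higher. In the combination against SAHA, rescaling over protein-coding genes gave 7 canonical genes higher, where 2458 of all 12181 genes were higher. Median-of-ratios scaling and quantile normalization each gave 3 replication-independent genes lower, where 3645 and 3686 of all 13937 genes were lower. For the interaction, canonical genes called lower were 0 after median-of-ratios scaling, after quantile normalization, with no filter and with the replicate block. They were 2 after rescaling over protein-coding genes, and 0 to 1 with a library left out. Lower calls over all 13937 genes were 2251 after median-of-ratios scaling, 2345 after quantile normalization and 2934 with the replicate block. With no filter they were 2601 of 29345, and after rescaling over protein-coding genes 2979 of 12181. Replication-independent genes called higher in the interaction were 7 after median-of-ratios scaling and 2 with no filter and with no intensity trend. With a library left out they were 1 to 4. Those called lower were 0 after median-of-ratios scaling. Over all 13937 genes this scaling gave 2581 higher and 2251 lower interaction calls, against 1642 and 2739 as deposited. Higher calls over all genes were 1364 of 29345 with no filter and 1563 of 13937 with no intensity trend. Leaving out a library gave 3 to 6 canonical genes higher in the combination against control, and 3 to 5 higher and 1 to 2 lower in the combination against sonidegib. Canonical sums after rescaling over protein-coding genes were 197.3 TPM with the combination, 217.5 with SAHA, 188.3 with sonidegib and 272.7 in control, and replication-independent sums 3637.2, 3225.3, 2781.4 and 2844.8. Median-of-ratios scaling gave SAHA sums of 167.2 and 2478.2 TPM.

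Any pairing of samples by replicate number was weak and was not part of the main fit. Residuals of same-numbered libraries correlated at -0.0586 to 0.111 over 18 pairs and of different numbers at -0.107 to 0.0966. By mean correlation, 8 of 12 libraries were closest to libraries of their own number. The replicate block took away the call of HIST2H4A in the interaction (-0.94, adjusted p = 0.0606) and of H2AFJ and HIST1H4K in the combination against SAHA (adjusted p = 0.0511 and 0.053). It added calls of H3F3A in the combination against control and the interaction (adjusted p = 0.042 and 0.046), H3F3B in sonidegib against control (adjusted p = 0.0342), HIST1H2BJ in SAHA against control (adjusted p = 0.0472), and HIST1H3B in sonidegib against control and the combination against SAHA (adjusted p = 0.0448 and 0.0396). Over all genes it gave 1864 higher and 2934 lower interaction calls, against 1642 and 2739 without it. In every other comparison it also gave more calls over all genes, in both directions. Limits of these data are the unknown depth, 3 libraries per group, changes of genes at a few TPM that the added 1 makes smaller, and model lengths on which each TPM rests.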
